A study of Homo sapiens with 16 samples.

Results

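The rows of the deposited gene-body table whose symbol is LINC followed by digits and whose span is at most 100 kb were taken as long intergenic noncoding RNA genes, and 441 of the 9944 rows met this rule. They carry 436 distinct symbols, since 5 symbols stand on 2 rows each. Another 40 LINC rows were longer than 100 kb, and 4 rows were left out because their symbol holds more than digits. Values came from TT-chem-seq of HAP1, a human cell line with nearly 1 set of chromosomes. It comes from KBM-7 cells, which were grown from a chronic myeloid leukaemia, and is labelled wild type. In this assay cells take up 4-thiouridine (4-SU), and RNA that carries it is tagged with biotin, pulled down and sequenced, so that mostly RNA made during the labelling time is counted. The 16 libraries form 8 groups of 2. NON4SU cells received no 4-SU, and no inhibitor is named for them. Untreated cells received 4-SU alone at 1 mM for 30 min. The other 6 groups received 4-SU for the last 30 min of 1 h or 5 h with an inhibitor: 1 µM BMH-21 (BMH21), against RNA polymerase I, 100 µM DRB, against RNA polymerase II, or 20 µM ML-60218 (ML60218), against RNA polymerase III. The labels name 2 biological replicates per group without saying that they were separate cultures, so p-values measure only the spread between these libraries.

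Long intergenic noncoding RNA genes lie between protein-coding genes and are transcribed by RNA polymerase II, and most of their RNAs are capped and spliced but not translated. Many are transcribed at low levels and in few cell types, and their RNAs are often short-lived. DRB inhibits the kinase CDK9, which releases paused polymerase into elongation, so polymerases already past the pause can run on to the end of a gene while new ones stay behind.

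The libraries held 14083584 to 93919776.5 tags, which come in steps of 0.5, and the gene-body table took up 55845.5 to 6059928.5 of them. The LINC genes held 465.5 to 29822.5 tags per library. Their share of the table's tags was 0.452% and 0.462% in untreated cells, 0.402% and 0.378% after 1 h of DRB, and 0.802% and 0.834% after 5 h of DRB. In NON4SU cells the shares were 0.451% and 0.851%, so these libraries were unlike each other. The replicates of each group differed by more than counting noise. Of 16 blood lineage markers 7 are in the table, and 4 of them had at least 20 untreated tags, led by RUNX1 with 1263.5. Of 9 adherent-cell markers 2 are in the table, LGALS1 and COL1A1, with 221 and 90.5 untreated tags. The 1 pluripotency marker in the table, LIN28A, had 313.5 untreated tags.

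Sequences are shown for 4 LINC genes whose levels carry the results: LINC00657, which had the highest level per length, LINC00899 and LINC01315, which fell under DRB, and LINC00243, which rose under DRB. Each is the RefSeq promoter window on GRCh38.p14, from 250 bases before to 50 bases after the annotated start, read 5′ to 3′ on the gene's strand. Capitals mark CCAAT and GGGCGG on either strand, and TATAAA was searched for on both strands as well, with none found in these 4 windows. Matches of the 3 motifs were counted separately.
LINC00657 (NORAD, chr20:36050911-36051210, minus strand): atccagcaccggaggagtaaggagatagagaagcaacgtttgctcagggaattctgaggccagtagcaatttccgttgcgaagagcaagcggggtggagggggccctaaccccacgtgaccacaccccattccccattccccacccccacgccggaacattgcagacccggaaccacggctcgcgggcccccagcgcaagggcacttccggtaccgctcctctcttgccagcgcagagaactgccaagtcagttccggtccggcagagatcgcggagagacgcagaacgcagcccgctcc
LINC01315 (chr22:42369159-42369458, minus strand): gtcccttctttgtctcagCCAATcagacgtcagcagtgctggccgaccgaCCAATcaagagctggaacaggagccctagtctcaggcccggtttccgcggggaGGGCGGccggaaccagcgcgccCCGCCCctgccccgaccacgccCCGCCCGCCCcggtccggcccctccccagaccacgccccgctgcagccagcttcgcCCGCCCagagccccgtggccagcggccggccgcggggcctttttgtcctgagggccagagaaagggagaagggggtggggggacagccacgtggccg
LINC00899 (chr22:46044819-46045118, minus strand): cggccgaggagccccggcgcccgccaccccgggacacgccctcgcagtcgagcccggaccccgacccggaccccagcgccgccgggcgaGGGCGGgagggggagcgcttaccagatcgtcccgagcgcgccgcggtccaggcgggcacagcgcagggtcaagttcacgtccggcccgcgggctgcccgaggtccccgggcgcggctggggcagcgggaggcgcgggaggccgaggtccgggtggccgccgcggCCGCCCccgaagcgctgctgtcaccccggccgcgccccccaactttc
LINC00243 (chr6:30830610-30830909, minus strand): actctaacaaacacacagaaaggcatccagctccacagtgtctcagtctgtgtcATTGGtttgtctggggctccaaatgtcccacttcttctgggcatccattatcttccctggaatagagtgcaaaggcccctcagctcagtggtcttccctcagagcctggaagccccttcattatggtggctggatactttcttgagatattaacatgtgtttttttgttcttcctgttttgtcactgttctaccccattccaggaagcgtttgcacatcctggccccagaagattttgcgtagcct
The annotated start was 0 bases from the 5′ end of the table's row for LINC00657 and LINC00243, 28 bases from it for LINC01315 and 15 bases from it for LINC00899. The windows differed in base composition: LINC00899 had 81.0% G or C and 48 CpG, LINC01315 72.7% and 28, and LINC00657 63.0% and 23. LINC00243 had 48.0% G or C and 2 CpG. The promoter table held 323 windows of 300 LINC genes. Their median was 47.7% G or C and 4 CpG, against 58.7% and 14 over all 35116 windows. GGGCGG was in 16.4% of the LINC windows and in 45.0% of all windows, TATAAA in 15.8% and 11.5%, and CCAAT in 35.9% and 34.6%. Among the 60 windows of 53 LINC genes with at least 20 untreated tags, 31.7% held GGGCGG, and the median was 53.3% G or C. These are descriptions of the letters in the windows.

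Most LINC genes had few tags. Of the 441, 11 had no tag in any of the 16 libraries, 142 had none in either untreated library, and 65 had at least 20 tags over both untreated libraries. The last number is 14.7% of the LINC genes, against 46.5% of all table rows. Only 19 reached 100 tags, and the 4 LINC genes with most tags held 42.9% of the 12400.5 untreated LINC tags, and the top 10 held 63.6%. Spans were shorter than in the table as a whole, with a median of 13375 bp against 17074 bp. Chromosome 13 carried 70 of the LINC genes, 15.9%, against 2.43% of all rows. RefSeq lists 427 of them at the same place, 416 as long noncoding RNA and 10 as protein-coding, and 33 now have another symbol. LINC00657 is now NORAD, a cytoplasmic RNA that binds PUMILIO proteins, LINC01021 is PURPL, an RNA known as a target of p53, and LINC01420 is NBDY, which codes for a small protein of P-bodies. Tags were counted without regard to strand, and 133 of the 441 spans touch another RefSeq gene, 22 of them a protein-coding one and 46 a pseudogene, so their values may hold tags of that gene.

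Levels per length are tags per 10M tags of the library, divided by the span in kb. LINC00657 led by a wide margin, with 29.9 and 33.2 in the untreated libraries and 3.73 and 5.05 in NON4SU. LINC00909, now ZNF407-AS1, had 5.75 and 5.82, LINC01315 had 5.75 and 4.98, and LINC01021 had 4.41 and 4.86. LINC00909 and LINC01315 had values that met at 5.75, and both lay above both values of LINC01021. LINC00921 followed with 3.60 and 4.31. LINC01569, with 3.08 and 3.38, and LINC00899, with 2.96 and 3.44, overlapped each other and lay below LINC00921. LINC00641 had 2.75 and 2.6985, LINC00680 had 2.78 and 2.37, and LINC01123 had 2.57 and 2.44. The values of LINC00680 spanned those of both neighbours, while LINC00641 lay above LINC01123 in both libraries. In NON4SU cells LINC00641 kept 0.567 and 0.698, while LINC00909 kept 0.0584 and 0.0479. Each of the 10 was higher in both untreated libraries than in both NON4SU libraries. They were chosen for high untreated levels, so this is a description and no separate support.

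**Figure D1:**
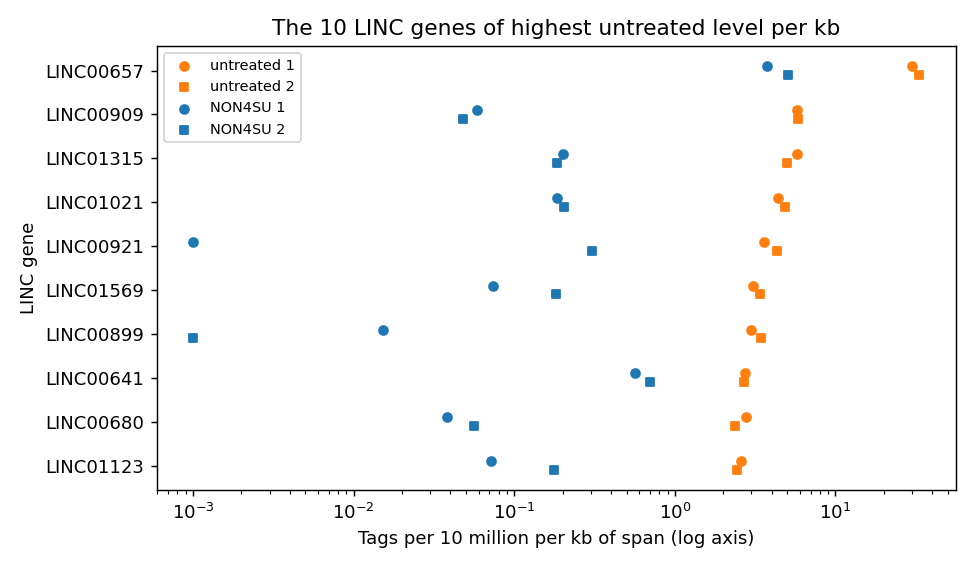
Level in tags per 10M per kb of span (log axis) of the 10 LINC genes of highest untreated level, for the untreated and NON4SU libraries, one point per library; a library with 0 tags is drawn at 0.001. LINC00657 stands far to the right of the others at 29.9 and 33.2, and the untreated points of each gene lie close together.

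The comparison of untreated with NON4SU cells asks how much of a gene's signal depends on 4-SU. With the yeast spike-in, RNA of another species added to each sample, as the scale, the 65 LINC genes with at least 20 untreated tags had a median of 0.724% and 2.26% of the untreated level in the NON4SU libraries. Over all 4621 rows with as many tags these medians were 0.789% and 2.16%. On this scale edgeR's quasi-likelihood test called all 62 LINC genes tested higher in untreated cells and 0 lower, beside 99.8% and 0% of the rows tested.

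Relative to a typical gene of the table, LINC genes differed among themselves. limma on log2 values called 12 of the 127 LINC genes tested higher in untreated than in NON4SU cells and 27 lower (adjusted over all 5769 rows tested), beside 17.3% and 17.1% of all rows. All 27 that were lower had under 20 untreated tags, and such genes could pass the filter through their NON4SU tags alone. limma's total of 39 was 63 without the first NON4SU library, 19 without the second, and 21 without either untreated library. Of the 62 with at least 20 untreated tags, limma and edgeR together called 12 higher and 0 lower, beside 20.9% and 10.4% of the rows with as many tags. The named ones were LINC00899, LINC00909, LINC01315, LINC01569 and LINC01021. LINC00909 had 160.5 and 237 tags in the untreated libraries and 3 and 1 in the NON4SU libraries. Its log2 change was 3.79 ± 0.55 (SE, n = 2 libraries a group, limma, adjusted p = 0.00057). This SE and those below rest on 1 spread per gene that all groups in the fit share. LINC00899 had 52.5 and 89 untreated tags and 0.5 and 0 in NON4SU, a ratio of 35.9 with a 95% exact counting interval of 3.18 to 716. LINC01021 had 490.5 and 789.5 untreated tags and 38 and 17 in NON4SU, a log2 change of 1.65 ± 0.33 (limma, adjusted p = 0.0031). LINC01315 rose by 1.86 ± 0.44 (adjusted p = 0.0081) and LINC01569 by 1.86 ± 0.58 (adjusted p = 0.029). limma's call of LINC01569 was lost without any 1 of the 4 libraries compared (adjusted p from 0.059 to 0.10). That of LINC01315 was lost without the second NON4SU library (0.053) or the first untreated one (0.061), and that of LINC00899 without the second NON4SU library (0.060). LINC00657 did not pass, at -0.06 ± 0.21 (limma, adjusted p = 0.85). LINC00641 had 81.5 and 117 untreated tags and 31 and 15.5 in NON4SU, a log2 change of -0.81 ± 0.42 (limma, adjusted p = 0.16; edgeR, adjusted p = 0.022).

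Most of the 65 LINC genes with at least 20 untreated tags were lower under DRB on the spike-in scale. They had a median of 22.8% and 26.01% of untreated in the DRB 1 h libraries, and of 12.6% and 8.87% in the DRB 5 h libraries. The median of the genes' own means was 26.01% ± 2.29 (SD of the library medians, n = 2) at 1 h and 13.9% ± 2.65 at 5 h, beside 27.3% and 11.5% over all 4621 rows. On this scale edgeR called 43 of the 64 LINC genes tested lower and 1 higher at 1 h, beside 84% and 1.07% of all rows with as many tags, and 44 lower and 1 higher at 5 h, beside 88.3% and 1.87%. The 1 that was higher at both times was LINC00243. Of the 65, 7 were at 0 tags in both DRB 1 h libraries and 12 in both DRB 5 h libraries, where 1 library held as few as 55845.5 gene-body tags. Fewer tags of a gene can come from fewer labelled cells or from less RNA per cell, which bulk libraries cannot tell apart.

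**Figure D2:**
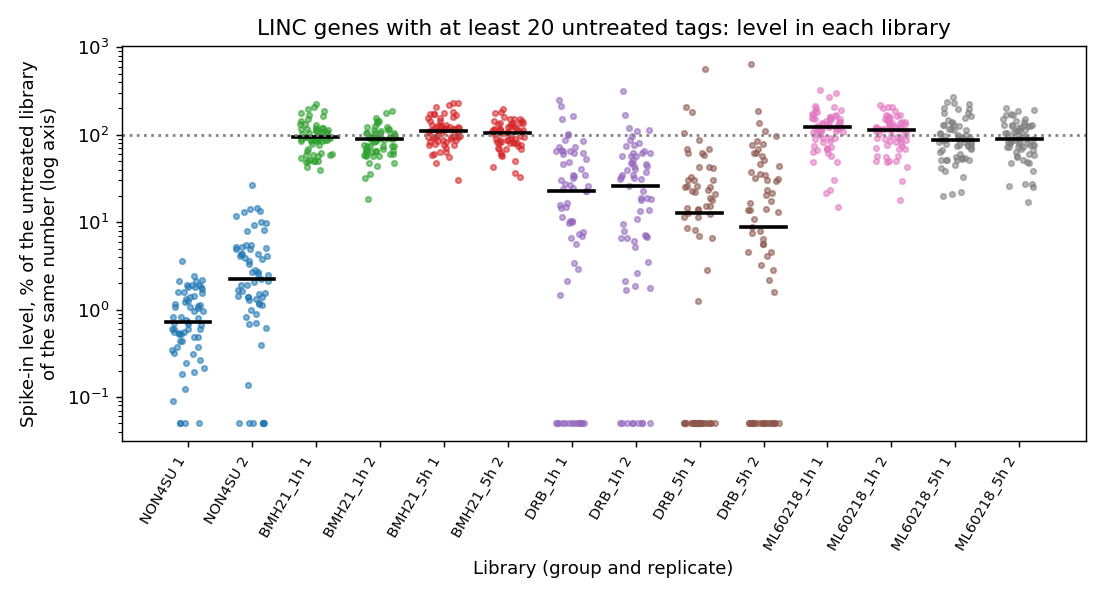
Spike-in level of the 65 LINC genes with at least 20 untreated tags in each library, in percent of its untreated partner by replicate number (log axis); each point is a gene, the bar is the library's median, the dotted line is 100% and a gene with 0 tags is drawn at 0.05. Medians were 0.724% and 2.26% in NON4SU, 22.8% and 26.01% at 1 h and 12.6% and 8.87% at 5 h of DRB, and from 87.7% to 122% in the other groups.

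Short LINC genes had lower levels after 1 h of DRB than long ones, as a description with no test. The 26 genes under 10 kb had a median of 6.03% of untreated after 1 h of DRB, the 15 from 10 to 30 kb had 33.6%, and the 24 from 30 to 100 kb had 37.8%. After 5 h the 3 medians were 8.82%, 12.8% and 18.7%. Over all rows the medians at 1 h were 11.5% for 980 rows, 17.9% for 1544 rows and 33.6% for 1517 rows in the same span classes, and at 5 h they were 8.60%, 11.4% and 12.7%. The NON4SU medians were also higher in longer classes, at 1.01%, 1.27% and 2.81% for the LINC genes, and their part in the DRB values was not tested. The span limit of 100 kb lies in a sparse range: the longest genes inside it were LINC01476 at 96.1 kb with 40 untreated tags, LINC00290 at 95.1 kb with 15 and LINC00189 at 94.7 kb with 7.5. The shortest outside it were LINC01169 at 103.6 kb with 39, LINC01324 at 117.4 kb with 4.5 and LINC01501 at 119.1 kb with 3. LINC01476 stood at a mean of 170% and 171% of untreated at 1 h and 5 h of DRB, and LINC01169 at 64.4% and 72.3%. The mean of LINC01476 rests on untreated libraries that were unlike each other, with 8 and 32 tags. It had 11 and 13.5 tags at 1 h and 6 and 8.5 at 5 h.

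**Figure D3:**
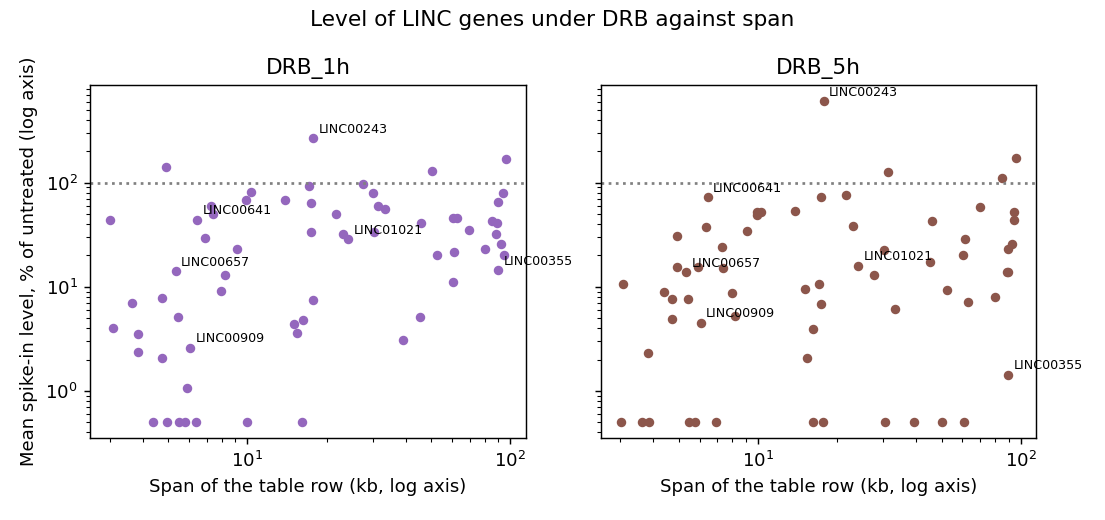
Mean spike-in level in percent of untreated (log axis) against the span of the table row in kb (log axis) for the 65 LINC genes, after 1 h (left) and 5 h (right) of DRB; genes at 0 tags are drawn at 0.5 and the dotted line is 100%. Genes under 10 kb had a median of 6.03% at 1 h against 37.8% from 30 to 100 kb, and LINC00243 lies above all others in both panels.

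Relative to a typical gene of the table, limma called 12 LINC genes higher and 25 lower of 109 tested after 1 h of DRB, beside 13.4% and 27.5% of all 5532 rows tested. After 5 h it called 43 higher and 19 lower, beside 23.3% and 38%. Of the 43 higher at 5 h, 33 had under 20 untreated tags, and of the 19 lower none did. limma's total at 1 h was 37, and it was 13 without the first untreated library and 20 without the second. Counts here are therefore given for the 64 genes with at least 20 untreated tags that both tools called, chosen with the data already examined. At 1 h, 4 were higher and 19 lower, beside 13.2% and 31.2% of the rows with as many tags. At 5 h, 8 were higher and 9 lower, beside 12.4% and 31.7%. Of the LINC genes under 10 kb, 13 of the 25 tested were lower at 1 h, 52% beside 50% of all rows under 10 kb. From 10 to 30 kb it was 3 of 15, 20% beside 43.5%, and from 30 kb it was 3 of 24, 12.5% beside 13.6%.

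Among the 64 LINC genes tested with at least 20 untreated tags, LINC00243 was the 1 that rose both relative to a typical gene and on the spike-in scale, at both times. Over all 109 tested, with those of fewer tags, limma called 5 higher on the spike-in scale at 1 h and 16 at 5 h. The shares of all rows that limma called on that scale were not counted, so these counts are not read as particular to LINC genes. LINC01476 also rose relative to a typical gene by both tools, with limma log2 changes of 2.13 at 1 h and 3.19 at 5 h (adjusted p = 0.0083 and 0.00055), but its spike-in level did not pass. The row of LINC00243 spans 17794 bp on the minus strand of chromosome 6, from 30812866 to 30830659 on hg38, and touches no other RefSeq gene. It had 21.5 and 41.5 tags in the untreated libraries, 25 and 63.5 after 1 h of DRB, and 44.5 and 52.5 after 5 h, although the DRB libraries were smaller. On the spike-in scale that was 213% and 318% of untreated at 1 h and 571% and 647% at 5 h. Relative to a typical gene its log2 change was 2.96 ± 0.35 at 1 h (limma, adjusted p = 0.00014) and 5.06 ± 0.35 at 5 h (adjusted p = 3.8e-06). Scaled to the spike-in, it was 1.37 at 1 h (limma, adjusted p = 0.0079) and 2.58 at 5 h (adjusted p = 6.0e-05). It stood at 0.674% and 1.57% of untreated in NON4SU. The 2 rows near it with over 20 untreated tags were lower: XXbac-BPG27H4.8, 8.9 kb away, was at 7.11% and 26.2% at 1 h and 5 h, and NRM, 121.4 kb away, was at 23.03% and 16.5%. HCG20, 20.6 kb away, had 6 untreated tags and stood at 20.8% and 102%. DDR1-AS1, 36.3 kb away, had 10 untreated tags and stood at 34.7% and 85.2%. In the other inhibitor groups LINC00243 had 95.7% and 114% (BMH21 1 h), 168% and 153% (BMH21 5 h), 162% and 207% (ML60218 1 h) and 69.6% and 89.8% (ML60218 5 h), and neither tool called it there.

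The other named LINC genes that were higher at 5 h rose relative to a typical gene but not on the spike-in scale. LINC00641 had 81.5 and 117 untreated tags, 13.5 and 32.5 at 1 h and 26 and 13 at 5 h. Its log2 change at 5 h was 1.98 ± 0.42 relative to a typical gene (limma, adjusted p = 0.0029) but -0.50 on the spike-in scale (adjusted p = 0.28), where it stood at 88.0% and 56.8% of untreated. LINC00621, whose span holds the pseudogenes BASP1P1 and NUS1P2, rose by 1.93 ± 0.53 relative to a typical gene (limma, adjusted p = 0.011) and was at -0.53 on the spike-in scale (adjusted p = 0.34). Without the second DRB 5 h library its change relative to a typical gene was 0.83 (adjusted p = 0.051), and its call was also lost without the first untreated library (0.099), with only the 4 libraries compared (0.11) and with a variance per group (0.064). LINC01234 rose by 1.15 ± 0.45 relative to a typical gene (limma, adjusted p = 0.047) and fell by 1.32 on the spike-in scale (adjusted p = 0.012). Its call relative to a typical gene was lost with a pseudocount of 0.1 (limma, adjusted p = 0.053), with no filter on low values (0.21), without either untreated library (0.20 and 0.14) and without the second DRB 5 h library (0.42).

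Among the LINC genes that fell under DRB, the abundant short ones were low within 1 h. LINC01315 went from 125 and 158 untreated tags to 1 and 2 at 1 h and 3 and 1 at 5 h, or 1.47% and 2.63% of untreated on the spike-in scale at 1 h. Relative to a typical gene it was 15.95 times lower at 1 h, with a 95% exact counting interval of 5.40 to 77.8 (limma, adjusted p = 5.0e-05). LINC00909 went from 160.5 and 237 tags to 3 and 2 at 1 h and 4 and 1 at 5 h, a log2 change of -3.71 ± 0.52 at 1 h (limma, adjusted p = 0.00041). LINC00899, whose span touches LOC124905135, had 2 and 0 tags at 1 h and none at 5 h, when it was at least 2.19-fold lower relative to a typical gene, counted against 3 tags over the group. limma's call of it at 1 h was lost without either untreated library (adjusted p = 0.056 and 0.057). LINC00921 had 63.5 and 111 untreated tags, 1 and 1 at 1 h and 0 and 1 at 5 h. Its ratio at 1 h was 14.8 with an interval of 4.01 to 122 (limma, adjusted p = 0.046, edgeR, adjusted p = 1.4e-05), and limma's call was lost with a pseudocount of 0.1 (adjusted p = 0.14) and without any 1 of the 4 libraries compared (adjusted p from 0.11 to 0.16). LINC00471 went from 32.5 and 49 tags to 0 and 0.5 at 1 h, a ratio of 27.6 with an interval of 2.42 to 554 (limma, adjusted p = 0.042). That call was lost with a pseudocount of 0.1 (adjusted p = 0.071), without either untreated library (0.15 and 0.14) and without the first DRB 1 h library (0.21). LINC00680, which RefSeq also lists in a read-through with GUSBP4, had 198 and 246.5 untreated tags, 6 and 2 at 1 h and 0 and 2 at 5 h. At 1 h limma did not call it (adjusted p = 0.12), but edgeR called it lower (log2 change -3.25, adjusted p = 5.3e-07). Both tools called it lower at 5 h, with a ratio of 10.3 and an interval of 2.84 to 85.3 (limma, adjusted p = 0.013). limma's 5 h call of it was lost without either untreated library (adjusted p = 0.061 and 0.051). Each of these 6 genes was at 31.3% of untreated or less in every DRB library.

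LINC00657 (NORAD) was lower relative to a typical gene at 1 h but not past the threshold at 5 h. Its 736 and 1193.5 untreated tags became 39.5 and 106 at 1 h and 37.5 and 32 at 5 h, or 9.85% and 18.5%, then 14.1% and 13.7% of untreated on the spike-in scale. Relative to a typical gene its log2 change was -1.29 ± 0.21 at 1 h (limma, adjusted p = 0.00085) and did not pass at 5 h, at -0.36 ± 0.21 (adjusted p = 0.15). LINC01021 (PURPL) stood at 34.4% and 22.9% at 1 h and 11.5% and 20.4% at 5 h, and relative to a typical gene neither time passed, at -0.24 ± 0.31 and -0.22 ± 0.31 (limma, adjusted p = 0.58 and 0.56).

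The comparison of 5 h with 1 h of DRB asks which genes went on changing. limma called 39 of the 109 LINC genes tested higher at 5 h and 12 lower relative to a typical gene, beside 29.6% and 25.3% of all rows. Both tools called 6 higher and 5 lower of the 64 with at least 20 untreated tags, beside 17% and 19.7%. On the spike-in scale limma called 4 of the same 64 higher and 21 lower, and edgeR 2 higher and 11 lower. The shares of all rows on that scale were not counted for these times, so these counts are not read as particular to LINC genes. Of the 5 that both tools called lower relative to a typical gene, 4 were among the 24 tested from 30 kb, 16.7% beside 34.8% of all such rows. LINC00355, which spans 89641 bp on chromosome 13, had 219.5 and 319.5 untreated tags, 12 and 29 at 1 h and 1 and 1 at 5 h, or 10.0% and 18.9%, then 1.26% and 1.60% of untreated. It was 5.63 times lower at 5 h than at 1 h relative to a typical gene, with an interval of 1.46 to 48.0 (limma, adjusted p = 2.9e-05). LINC00632, the primary transcript that gives the circular RNA CDR1as, went from 60.03% and 31.3% to 8.52% and 5.65%, a log2 change of -1.75 ± 0.25 (limma, adjusted p = 0.00024). LINC00269 had 5 and 9 tags at 1 h and 0 and 0 at 5 h, at least 1.28-fold lower. LINC00243 and LINC00641 were higher at 5 h, by 2.11 ± 0.35 and 1.64 ± 0.42 (limma, adjusted p = 0.00064 and 0.0084), and LINC00657 by 0.93 ± 0.21 (adjusted p = 0.0039). Without the first DRB 1 h library LINC00641 lost limma's call (adjusted p = 0.072) and LINC00657 was at 0.50 (adjusted p = 0.018). By the spike-in LINC00657 changed by 0.04 (adjusted p = 0.91) and LINC00641 by 0.75 (adjusted p = 0.15).

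**Figure D4:**
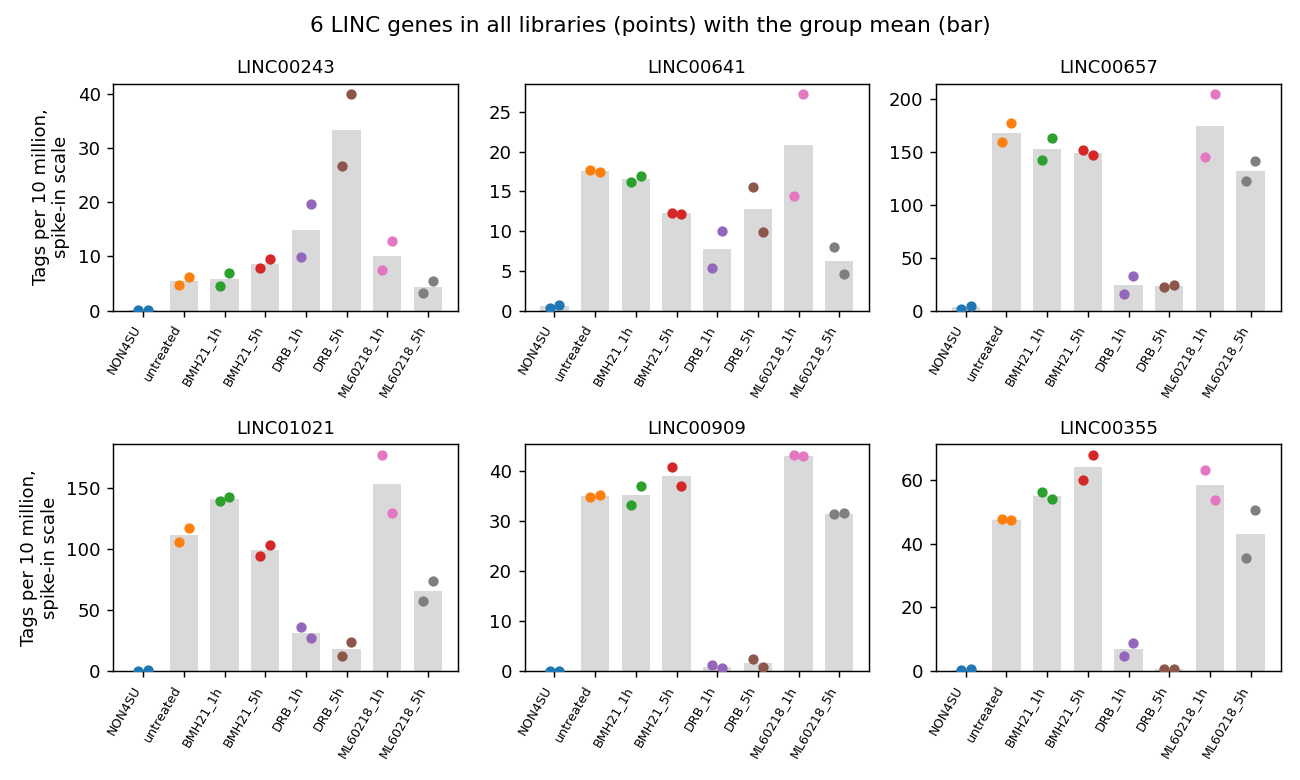
Tags per 10M on the spike-in scale in all 16 libraries for 6 LINC genes, with a point per library, the group mean as a bar and each axis from 0. LINC00243 climbs from untreated through 1 h to 5 h of DRB, LINC00657, LINC01021, LINC00909 and LINC00355 drop, and LINC00641 stays nearer to its untreated level.

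The 376 LINC genes with under 20 untreated tags were pooled. Together they had 309 and 556 tags in the untreated libraries, 385 and 749.5 in NON4SU, and 247.5 and 186.5 after 5 h of DRB. After spike-in scaling, the pool was at 6.02% and 43.8% of untreated in NON4SU, far apart, at 62.1% and 79.7% after 1 h of DRB and at 221% and 171% after 5 h. These genes were chosen for low untreated tags, and the part of that choice in the ratios to untreated was not tested. In the BMH21 and ML60218 groups the same pool had group means of 82.7% to 118%. The 65 better-covered genes pooled were at 0.696% and 2.02% in NON4SU and 17.7% and 19.8% after 5 h of DRB. Without scaling, the low pool made up 67.0 and 82.6 tags per 10M in untreated cells, 45.4 and 217 in NON4SU, and 130 and 132 after 5 h of DRB. The part of signal that does not depend on 4-SU in these values was not tested.

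At the median, LINC genes stood near their untreated level with BMH-21. In spike-in terms the medians were 93.2% and 90.7% at 1 h, beside 84.0% and 87.1% over all 4621 rows. At 5 h they were 110% and 106%, beside 120% and 116%. Single genes had means from 42.7% to 186% at 1 h and from 31.9% to 173% at 5 h. On this scale edgeR called 0 of 64 higher and 6 lower at 1 h, and 1 higher and 1 lower at 5 h. The shares of all rows that edgeR called on this scale were not counted. Relative to a typical gene limma called 0 LINC genes of 109 at either time, beside 0% of all rows at 1 h and 0% at 5 h. At an unadjusted p under 0.05 there were 4 and 3 LINC genes, beside 322 and 201 of all 5532 rows. limma's spread per gene was shared with the DRB groups, and the part of this in its counts was not tested. On the same scale edgeR called 0 at 1 h, beside 7.95% of all rows, and 1 at 5 h, beside 3.34%. That gene, LINC01031, is named because it was the 1 called and was chosen after its values were seen. It had 11 and 16 untreated tags and 8.5 and 6.5 after 5 h, a mean of 31.9% of untreated on the spike-in scale (edgeR log2 change -1.84, adjusted p = 0.037, limma adjusted p = 0.84).

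With ML-60218 the LINC genes had spike-in medians of 122% and 114% at 1 h, beside 98.0% and 104% over all 4621 rows. At 5 h they were 87.7% and 89.7%, beside 86.2% and 99.9%. On this scale edgeR called 0 of 64 in either direction at 1 h, and 0 higher and 3 lower at 5 h. The shares of all rows that edgeR called on this scale were not counted. Relative to a typical gene limma called 0 of 109 at either time, beside 0% of all rows at 1 h and 0% at 5 h. At an unadjusted p under 0.05 there were 4 and 8 LINC genes, beside 153 and 454 of all 5532 rows. Here too limma's spread per gene was shared with the DRB groups. On the same scale edgeR called 0 at 1 h, beside 0.0542% of all rows. At 5 h it called 3 higher and 2 lower, beside 6.47% called in either direction. LINC00641 was lower at 5 h, with 81.5 and 117 untreated tags against 39.5 and 14, or 45.4% and 26.2% of untreated (edgeR log2 change -1.27, adjusted p = 0.012). LINC01021 was lower too, at 53.8% and 63.0% of untreated (edgeR log2 change -0.68, adjusted p = 0.031). No overlap between the 2 groups was a condition for naming genes from this comparison. LINC01315 was higher, with 117% and 174% of untreated (edgeR log2 change 0.62, adjusted p = 0.037), as were LINC01024, now MALINC1, at 237% and 166% (1.05, adjusted p = 0.044) and LINC00173 at 270% and 190% (1.27, adjusted p = 0.048). limma's adjusted p for these 5 was from 0.37 to 1. With spike-in scaling edgeR's adjusted p was 0.0063 for LINC00641, 0.019 for LINC01021, 0.12 for LINC01315, 0.0865 for LINC01024 and 0.0855 for LINC00173. LINC01315 was the 1 LINC gene that limma or edgeR called in 3 of the 6 comparisons with untreated cells.

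Other noncoding genes of the table gave a frame for these values. The 75 antisense genes with at least 20 untreated tags had a median of 25.8% of untreated at 1 h and 8.23% at 5 h of DRB, and 1.13% in NON4SU. The 11 LINC genes over 100 kb with as many tags had 64.4% at 1 h and 71.9% at 5 h of DRB, and 13.99% in NON4SU. Their medians in the 2 NON4SU libraries were far apart, at 3.62% and 24.9%. Of the other long noncoding RNA genes listed by name, 8 are in the table, and 6 of them had at least 20 untreated tags. Among these, FIRRE, which takes part in nuclear organisation, was at 22.04% and 2.69% at 1 h and 5 h of DRB, XACT at 43.7% and 4.84%, and OLMALINC at 26.97% and 33.9%. None of these lists was tested against the LINC genes.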

How the data were processed

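TT-chem-seq libraries of HAP1 cells were compared over gene bodies. Per the file headers, the authors used HOMER on hg38, with no strand setting, and deposited a signal per library (tags per 10M) and a ratio of the spike-in scaled signal to its same-numbered untreated library. STAR 2.7.7a, Trim Galore 0.6.5 and FastQC 0.11.9 are named in the submitters' processing notes, as are the builds GRCh38 and R64. Multiplied by the library total, 91771 of 91771 deposited signal values under 200 tags came out as whole steps of 0.5 tag (tolerance 0.005 in the deposited value), and these tags were used. Because tags are scaled in the files, the main test was limma 3.58.1 (trend) on log2(value + 0.5), with values divided by the table sum times a TMM factor, so that a log2 change is relative to a typical gene. edgeR 4.0.16 (quasi-likelihood) on the tags, with steps of 0.5 kept, and DESeq2 1.42.0 on rounded tags were alternatives, run in R 4.3.3. Rows passed edgeR's filterByExpr (minimum 10 tags), the 14 labelled libraries entered the fit (all 16 against NON4SU), and p-values were adjusted by Benjamini-Hochberg over all rows tested, at 0.05. Spike-in factors came from the deposited ratios. Errors are SE of log2 changes and SD of levels, and intervals and bounds cover counting error only. The SE comes from 1 spread per gene shared by all groups in the fit, so scatter between DRB libraries also enters the BMH-21 and ML-60218 comparisons.

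Of the LINC genes, 127 passed the filter with NON4SU libraries and 109 without; the rest have levels only. Named were the 10 of highest untreated level per kb, up to 5 largest rises and falls per comparison among limma's calls (edgeR's where limma made none) with a mean of at least 20 tags per library and no overlap between the groups, any called in 3 of the 6 inhibitor comparisons, and the 3 rows on each side of 100 kb. The members, lists and rules were chosen with earlier results of these data known. The tests were checked on simulated tags, where limma made more false calls than edgeR at the DRB 5 h depth, so calls by both tools are given too. Promoter sequences came from RefSeq (GRCh38.p14). The 8 columns of group means and the rRNA and tRNA tables were not used here.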

Additional observations from a re-analysis of the deposited data

Results flagged for a closer look

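In the test of 5 h against 1 h of DRB, the response of 10 named LINC genes differed between the times. These changes are relative to a typical gene (limma, adjusted p under the threshold). Over all 5532 rows tested limma called 1636 higher and 1399 lower, so the 10 are not read as particular to LINC genes. LINC00243, LINC00632, LINC00641 and LINC00657 were named through calls in this same comparison. Higher at 5 h were LINC00243 (log2 change 2.11), LINC01315 (2.06), LINC01234 (1.95), LINC00641 (1.64), LINC00909 (1.51), LINC00621 (1.43) and LINC00657 (0.93). Lower at 5 h were LINC00632 (-1.75), LINC00355 (-2.36) and LINC00269 (-6.38). The value of LINC00269 rests on 0 tags in both DRB 5 h libraries and is no bound; counted against 3 tags over the group it was at least 1.28-fold lower. edgeR did not call LINC01315 (adjusted p = 0.093) or LINC00909 (adjusted p = 0.11), which had 3 and 5 tags in the DRB 1 h libraries together. On the spike-in scale 2 of the 7 higher genes passed limma's test, LINC00243 (1.22, adjusted p = 0.020) and LINC01315 (1.11, adjusted p = 0.034). The other 5 did not: LINC01234 (adjusted p = 0.053), LINC00641 (0.15), LINC00909 (0.30), LINC00621 (0.39) and LINC00657 (0.91). The 3 lower genes passed on that scale too. Between 1 h and 5 h of BMH-21 limma called 0 of 109 LINC genes, with 7 at an unadjusted p under 0.05, and edgeR called 15. Over all 5532 rows tested limma called 0, with 496 at such a p, and edgeR called 1014. Between 1 h and 5 h of ML-60218 limma called 0 LINC genes, with 16 at an unadjusted p under 0.05, and edgeR called 7. Here limma called 6 of all 5532 rows, with 739 at such a p, and edgeR called 664.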

How the results depend on the processing

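Counts below are of LINC genes called by limma unless another tool is named, with the settings that moved a count by over 1.5 times and the range over libraries left out. For most of these settings the shares of all rows were not counted, so no count here is read as particular to LINC genes. Relative to a typical gene, limma called 1984 and edgeR 2978 of all 5769 rows tested against NON4SU. Against NON4SU the count of 39 became 73 on the spike-in scale, 63 with edgeR, 69 with DESeq2, 85 with edgeR on the spike-in scale, 23 with a pseudocount of 0.1, 101 with no filter, 19 with only the 4 libraries compared and 18 with a variance per group. It was 12 for genes with at least 20 untreated tags, 12 with both tools and as many tags, 22 for genes touching no other RefSeq gene, and 19 to 63 with 1 library left out. At 1 h of DRB 37 became 24 with at least 20 tags, 23 with both tools, 23 with the 4 libraries, and 13 to 33 with 1 library left out. At 5 h of DRB 62 became 29, 17 and 20 under these same 3 settings, 19 with a variance per group, and 43 to 87 with 1 library left out. For 5 h against 1 h, 51 became 22, 11 and 8, 7 with a variance per group, 32 with DESeq2, 28 with edgeR on the spike-in scale, and 44 to 72 with 1 library left out. With BMH-21 at 1 h, 0 became 1 with the 4 libraries, 1 with a variance per group and 7 with edgeR on the spike-in scale. At 5 h 0 became 1 with edgeR, 3 with DESeq2, 4 with the 4 libraries, 3 with a variance per group and 2 with edgeR on the spike-in scale. With ML-60218 at 5 h these were 5, 4, 8, 5 and 3. The median spike-in level at 1 h of DRB, 26.01%, was 29.7% from 10 tags, 14.2% from 50 tags, 13.5% for spans up to 50 kb and 22.8% to 27.3% with 1 library left out. At 5 h, 13.9% was 8.73% from 50 tags, 10.6% up to 50 kb and 8.87% to 14.5% with 1 library left out. On the spike-in scale 3 rises at 5 h of DRB changed sign: LINC00621 (-0.53), LINC00641 (-0.50) and LINC01234 (-1.32). Of 377 alternatives over 29 results on named genes, 312 kept direction and call, 47 lost the call, 15 gained one and 3 changed sign. The causes were not tested beyond what fewer genes or libraries imply. With the replicate number as a block the counts were 39 against NON4SU, 34 and 62 at 1 h and 5 h of DRB, 51 between them and 0 elsewhere, and LINC00921 at 1 h (adjusted p = 0.0537) and LINC01234 at 5 h (adjusted p = 0.0585) lost limma's call. With 2 numbers the pairing cannot be established: deviations of same-numbered libraries correlated from -0.026 to 0.383 over 21 group pairs (median 0.108), and 11 were over 0.1. Few tags, above all at 5 h of DRB, limit most of the 441 genes.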
